A study of Mus musculus with 24 samples.

Results

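Kidneys obstructed for 2 days were compared with kidneys of sham-operated mice, gene by gene. Of the 24 RNA-seq libraries of the series, 8 were used, the 4 labelled with 2 days of unilateral ureteric obstruction and the 4 labelled sham, chosen by their column names, and all 14785 genes of the deposited table were tested. Each library came from a different animal. All were male mice labelled C57/BL6 with an age of 8 weeks (8 to 9 weeks at the start, per the design text), with no genotype change or drug given in the labels. The sham mice had surgery without ligation as far as the labels say, and the obstructed mice had 1 ureter tied and were culled 2 days later. Per the design text, 10 animals were used per group and 4 of them were sequenced, and how the 4 were picked is not given in the sources used here. The tissue is labelled kidney, and the sample titles call it cortical kidney.

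Tying a ureter raises the pressure in the tubules and stretches their walls. The nephron filters plasma at the glomerulus, reclaims most of the filtrate in the proximal tubule, dilutes the urine in the thick ascending limb and adjusts salt, calcium, water and acid in the distal convoluted tubule, connecting tubule and collecting duct. Injured tubule cells are known to lose these transport programmes, to switch on injury genes such as Havcr1 and Lcn2, to release chemokines and to re-enter the cell cycle. Leukocyte infiltration and fibrosis are known to follow later in this model. In bulk tissue, fewer cells of a type and less RNA per cell cannot be told apart, and this holds for every gene below.

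Values are FPKM (fragments counted relative to transcript length and to the library's total), a unit inferred here from the table. Differences are the mean of log2(FPKM + 1) in the 2-day kidneys minus that in sham, which understates the change of low genes. They carry the standard error (SE) and the Benjamini-Hochberg adjusted p of a limma fit over all 24 libraries. A gene was called, and is said to have risen or fallen, at an adjusted p under 0.05. The p-values rest on the spread between animals within the 6 groups of the series, pooled in that fit. They do not cover a library difference that coincides with the 2-day group. Each gene was also tested after every library was rescaled by a median-of-ratios factor (each gene set against its own geometric mean over libraries), because FPKM is relative to the whole library.

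Limma called 7279 genes, 49.2% of those tested: 4772 rose (32.3%) and 2507 fell (17.0%). After rescaling, 3739 rose (25.3%) and 3776 fell (25.5%), together 50.8%. These shares are the background for each list count below. Rescaling by median ratios itself centres the balance, and scaling every library to the same sum gave 3959 rises and 2732 falls. The median gene differed by 0.09 on the deposited scale and by -0.01 after rescaling, and 6219 genes were called in the same direction on both scales with 0 called in opposite directions. Most called differences were small: 47.1% were under 0.5 in log2, 35.2% lay from 0.5 to 1, and 3.43% were over 2. A call together with an absolute difference of at least 1 was reached by 849 genes upward (5.74%) and 445 downward (3.01%), together 8.75%. After rescaling these shares were 5.03%, 4.04% and 9.06%. The 4 and 4 values did not overlap in 28.3% of genes upward and 14.4% downward, 42.8% in all, and in 41.7% after rescaling. In the authors' deposited table the same comparison holds 7442 genes (50.3%) with an adjusted p under 0.05, of which 3889 are higher at 2 days (26.3%) and 3553 lower (24.0%).

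**Figure D1:**
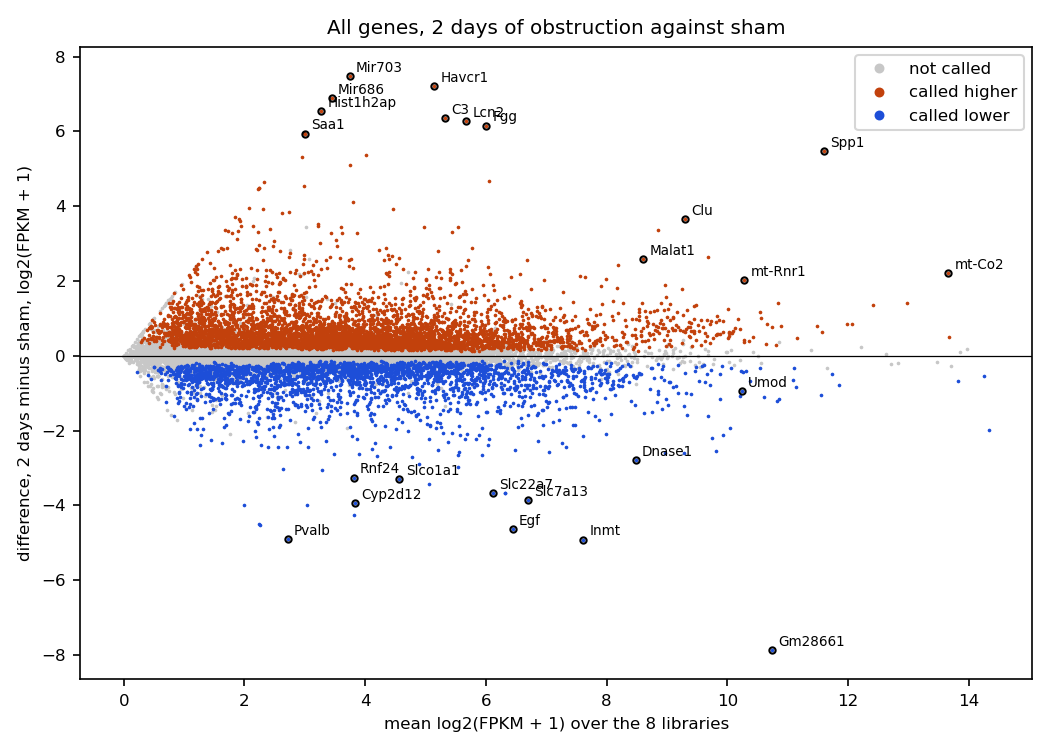
Difference between 2 days of obstruction and sham (vertical, log2(FPKM + 1)) against the mean over the 8 libraries (horizontal, log2(FPKM + 1)) for all 14785 genes, with 4772 called higher, 2507 called lower and the rest in grey. Labelled genes include Havcr1 at 7.21, C3 at 6.35, Egf at -4.62 and Inmt at -4.91.

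The libraries differed in ways that must be read beside the genes. The 2-day animal numbered 2 lay closer to sham than the other 3: it was the 2-day value nearest to sham in 73.5% of called genes, against 5.78% to 10.4% for each other 2-day animal, and it fell inside the sham range in 17.8% of them. Across genes, its Pearson's r with sham was 0.955 to 0.963, and that of the other 3 was 0.914 to 0.934. The sham animal numbered 2 stood apart too, being the sham value nearest to the 2-day group in 53.6% of called genes. It was the highest of its group for markers of fat, urothelium and deep medulla, whose part in the results was not tested: Cfd was 91.8 FPKM there and at most 0.17 in the other sham kidneys, Upk3a was 10.2 against at most 0.81, and Slc14a2 was 36.6 against 5.67 to 17.5. Neither animal 2 is a pair of the other, since the numbers only name animals. Without both, limma called 7704 genes, 5143 higher and 2561 lower.

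The 2-day group as a whole also differed in its libraries. Steps in the low values, which show what 1 fragment is worth, implied 31700000 to 34900000 fragments in sham and 74000000 to 109200000 in the 2-day libraries, the latter with weaker support. Only 98 to 111 genes were listed at 0 in the 2-day libraries, against 151 to 171 in sham. The design text speaks of 20 libraries over 3 lanes while the series has 24. Whether the 2-day group was sequenced or processed apart is not given in the sources used here, and such a difference and 2 days of obstruction cannot be told apart. The genes that carried this difference most visibly are described at the end.

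Injury genes of the tubule rose. Of 19 listed genes of injured tubule, 17 rose and 0 fell, with a median difference of 2.24 against 0.09 over all genes. The 2 not called were Krt7, at 52.0 to 78.3 FPKM in sham and 63.1 to 89.5 at 2 days (adjusted p = 0.111 by limma), and Cdh6, at 0.40 to 0.82 and 0.84 to 1.19 (adjusted p = 0.0667). Cdh6 was called after rescaling (0.35, 0.0490) and in a fit of the 8 libraries alone (0.0197). Without sham animal 2 all 19 were called. Havcr1 encodes KIM-1, a receptor for dying cells (chr11:46735080-46779578, plus strand, mm10). It measured 1.75, 2.35, 1.49 and 2.06 FPKM in sham and 472, 218, 645 and 508 at 2 days. The groups were far apart, and the lowest obstructed kidney was animal 2. Its difference was 7.21 (SE 0.33, limma adjusted p = 7.05e-13), a 241-fold ratio of the group means. Lcn2, which encodes the iron-carrier binding protein NGAL (chr2:32384633-32388252, minus strand), measured 2.78, 16.2, 2.15 and 4.64 FPKM in sham and 408, 418, 426 and 553 at 2 days, with sham animal 2 the highest of its group. It rose by 6.27 (SE 0.40), and by 6.79 without sham animal 2. Spp1, osteopontin, went from 385, 719, 389 and 428 FPKM to 21639, 14966, 22581 and 25380 and was among the most abundant mRNAs of the obstructed kidneys. Its difference was 5.48 (SE 0.22).

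Other members of the list rose less far. Clu, clusterin, was 172, 203, 163 and 172 FPKM in sham and 2290, 2239, 2180 and 2293 at 2 days, so that all 4 obstructed kidneys, animal 2 included, lay within a narrow band. Timp1, an inhibitor of matrix proteases, rose by 3.84, Vcam1, an adhesion molecule, by 3.52, and the keratin Krt20 by 3.46. Sox9, a transcription factor of regenerating tubule, measured 0.13, 0.24, 0.15 and 0.15 FPKM in sham and 19.1, 2.45, 14.6 and 17.3 at 2 days. Animal 2 was several-fold below its group yet above every sham kidney, and the difference was 3.35 with it and 3.94 without it. Set beside these, 7-day kidneys, compared with the same sham animals, averaged 473 FPKM for Havcr1, 888 for Lcn2 and 6.17 for Sox9.

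**Figure D2:**
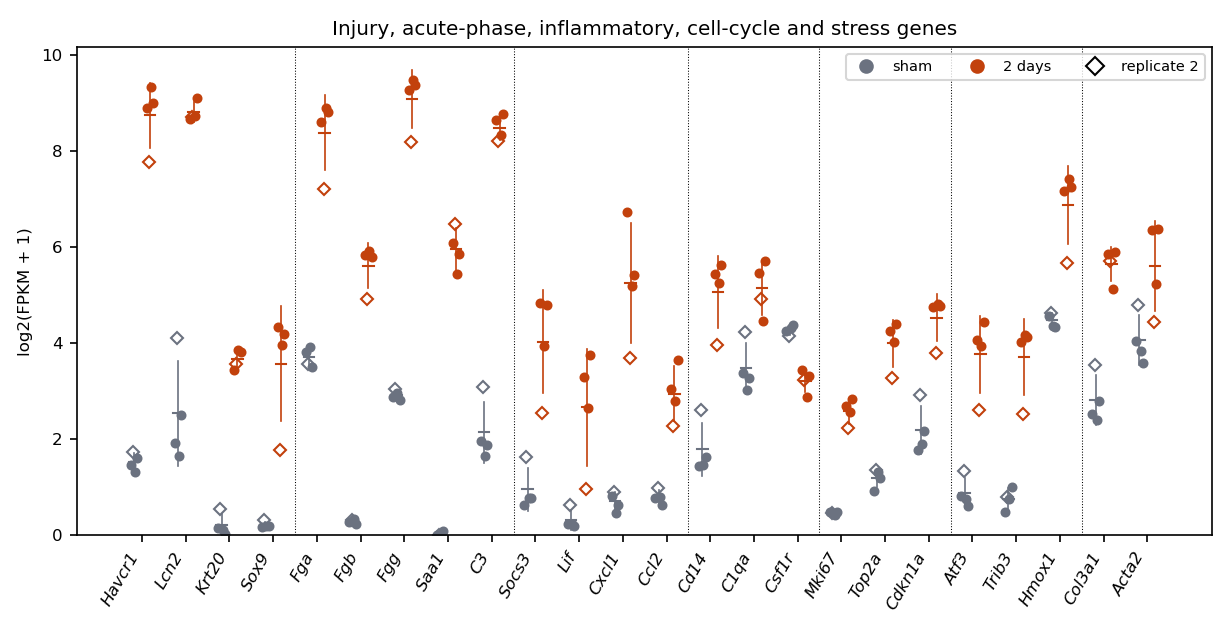
Log2(FPKM + 1) of 24 injury, acute-phase, inflammatory, cell-cycle, stress and matrix genes in the 4 sham (grey) and 4 obstructed (orange) kidneys, with bars for mean and SD and open diamonds for the animals numbered 2. The 2-day animal 2 is the lowest of its group for Havcr1 (218 FPKM), Sox9 (2.45), Fgg (293) and Hmox1 (49.9), and Csf1r lies lower in the obstructed kidneys.

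Acute-phase genes, which the liver is best known for making, rose in the kidney. Of 13 listed genes, 11 had a row, 9 rose and 0 fell, with a median of 2.88. The 3 chains of fibrinogen, the clotting protein, are encoded side by side on chromosome 3 and all rose. Their upstream sequences are shown with matches to motifs of factors that act in the acute-phase response. No motif was matched in all 3, and whether these factors act on the genes here was not tested. The sequences are from RefSeq on GRCm38.p6, 5′ to 3′ on each gene's strand, and end at the base before the start site, with motif matches in capitals. They are chr3:83025903-83026152 (plus strand) for Fga, chr3:83049864-83050113 (minus strand) for Fgb and chr3:83007474-83007723 (plus strand) for Fgg.
Fga: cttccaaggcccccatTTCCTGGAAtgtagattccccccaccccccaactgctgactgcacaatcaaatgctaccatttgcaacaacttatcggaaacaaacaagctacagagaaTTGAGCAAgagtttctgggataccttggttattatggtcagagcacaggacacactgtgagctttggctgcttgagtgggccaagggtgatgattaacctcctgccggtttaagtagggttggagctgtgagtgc
Fgb: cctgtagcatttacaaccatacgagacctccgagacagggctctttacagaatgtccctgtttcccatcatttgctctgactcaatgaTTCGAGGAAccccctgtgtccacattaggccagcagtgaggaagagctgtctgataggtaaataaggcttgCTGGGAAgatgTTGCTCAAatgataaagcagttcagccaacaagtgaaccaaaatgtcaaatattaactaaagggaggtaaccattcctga
Fgg: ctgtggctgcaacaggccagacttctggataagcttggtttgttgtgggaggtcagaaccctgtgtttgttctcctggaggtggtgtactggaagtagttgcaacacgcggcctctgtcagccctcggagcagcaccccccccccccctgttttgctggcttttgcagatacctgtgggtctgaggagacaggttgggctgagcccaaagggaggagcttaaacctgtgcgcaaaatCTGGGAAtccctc

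A STAT motif (TTCNNNGAA, a palindrome) was found in Fga, from 234 to 226 bases before the start site, and in Fgb, from 162 to 154 bases before it. A C/EBP motif (TTGCNNAA on either strand) was found in Fga from 135 to 128 bases before the start, on the opposite strand, and in Fgb from 80 to 73. The core of the IL-6 response element (CTGGGAA on either strand) was found in Fgb from 91 to 85 bases before the start and in Fgg from 13 to 7. None of these matches overlaps another. Among 32851 promoter windows of the same 250 bases, 7.02% held the STAT motif, 9.56% the C/EBP motif and 9.10% the IL-6 core. A match describes letters and does not show that a factor binds.

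Fgg, the gamma chain, measured 6.35, 7.31, 6.84 and 6.01 FPKM in sham and 620, 293, 714 and 665 at 2 days. Fga, the alpha chain, measured 13.2, 10.8, 14.2 and 10.4 FPKM in sham and 391, 148, 477 and 447 at 2 days. Fgb, the beta chain, went from 0.21, 0.24, 0.27 and 0.17 to 56.2, 29.1, 59.2 and 54.7 FPKM. For each chain, animal 2 was the lowest of its group and still far above sham. The differences were 6.16 (SE 0.24) for Fgg, 4.68 (SE 0.27) for Fga and 5.33 (SE 0.19) for Fgb, with limma adjusted p of 3.45e-14, 4.48e-11 and 1.23e-14. The beta chain thus stayed well below the other 2 on this length-scaled unit. At 7 days, against the same sham animals, the means were 112 FPKM for Fgg, 82.2 for Fga and 8.46 for Fgb.

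Saa1, serum amyloid A, was listed at 0 in 3 sham kidneys and at 0.07 FPKM in animal 4, and at 66.7, 89.0, 42.4 and 56.7 at 2 days. Here animal 2 was the highest of its group. Of the 50-base windows of Saa1 transcripts, 31.5% also occur in another gene, so its reads are not fully separable from those of its paralogs. C3, the central complement protein, measured 2.88, 7.48, 2.13 and 2.69 FPKM in sham and 399, 295, 322 and 437 at 2 days, a difference of 6.35 (SE 0.33).

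Signalling through IL-6 type cytokines is known to drive these genes, and its part here was not tested. Of 12 listed genes of IL-6, IL-1 and STAT3 signalling with a row, 10 rose and 0 fell, with a median of 1.59. Il6 itself had no row, and Il1b was not called. Lif, a cytokine of the IL-6 family, measured 0.18, 0.56, 0.17 and 0.14 FPKM in sham and 8.87, 0.95, 5.28 and 12.4 at 2 days. The value of animal 2 was close to that of sham animal 2, and the difference of 2.34 became 2.91 without the 2-day animal 2. Clcf1, another cytokine of the family, rose by 2.32. Socs3, the feedback inhibitor that STAT3 induces, measured 0.56, 2.09, 0.72 and 0.71 FPKM in sham and 27.5, 4.88, 14.3 and 26.9 at 2 days (difference 3.07, SE 0.36). Stat3 itself was 15.8 to 20.7 FPKM in sham and 51.5, 27.2, 50.9 and 49.6 at 2 days, a rise of 1.29. Pim1, a kinase that STAT3 induces, was 2.40 to 6.46 FPKM in sham and 3.34 to 7.44 at 2 days (limma adjusted p = 0.125), and it was called without either animal 2 (0.0326 without the 2-day one, 0.0123 without the sham one).

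Chemokines rose broadly. Of 15 listed, 12 rose and 2 fell, with a median of 1.49. Cxcl1, which draws neutrophils, measured 0.77, 0.88, 0.38 and 0.55 FPKM in sham and 105, 11.9, 35.3 and 42.0 at 2 days. The spread among the obstructed kidneys was wide, with animal 1 highest and animal 2 lowest, and no value overlapped sham. The difference was 4.55 (SE 0.44, limma adjusted p = 7.65e-08). Cxcl2, a close relative, rose by 2.87 and Cxcl10, an interferon-induced chemokine, by 3.27. Ccl2, which draws monocytes, measured 0.71, 0.98, 0.73 and 0.56 FPKM in sham and 7.32, 3.88, 5.97 and 11.6 at 2 days. The 7-day mean, set against the same sham animals, was 39.7 FPKM. Cxcl16 was already at 19.2 to 25.4 FPKM in sham and reached 61.1 to 120 (difference 1.96). The 2 that fell were Ccl28, an epithelial chemokine, by 1.00 on the log2 scale, and Cxcl12, a stromal chemokine, by 1.05.

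Of 18 monocyte and macrophage genes with a row, 14 rose and 1 fell, beside 32.3% and 17.0% of all genes, with a list median of 1.29. Their summed level was 80.4 to 135 FPKM in sham and 210 to 392 at 2 days, with the top of the sham range set by animal 2. Cd14, the lipopolysaccharide co-receptor, which injured tubule cells are also known to express, rose by 3.28, the lysosomal protein Cd68 by 2.20 and Plac8 by 1.83. C1qa, a complement subunit made by resident macrophages, measured 9.36, 17.9, 7.09 and 8.72 FPKM in sham and 43.1, 29.4, 21.2 and 51.6 at 2 days (difference 1.67). The single fall was Csf1r, the receptor on which macrophages depend. It measured 18.1, 16.7, 18.8 and 19.8 FPKM in sham and 9.81, 8.42, 6.34 and 8.93 at 2 days. The groups did not overlap, and the 4 sham kidneys were close to each other. The difference was -1.06 (SE 0.14, limma adjusted p = 3.05e-06) and -1.20 after rescaling. Adgre1, which encodes F4/80 and marks mature macrophages, was 0.56 to 0.94 FPKM in sham and 0.76 to 1.52 at 2 days (adjusted p = 0.167 by limma, and 0.0253 in a fit of the 8 libraries alone). The 7-day means, against the same sham animals, were 319 FPKM for C1qa, 39.0 for Csf1r and 15.8 for Adgre1.

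Neutrophil genes were near the floor of the table. Only 4 of 12 listed genes had a row, and their summed level was 0.99 to 1.60 FPKM in sham and 4.84 to 6.18 at 2 days. S100a8, a subunit of calprotectin, was 0.27 to 0.34 FPKM in sham and 1.74, 2.38, 2.04 and 1.60 at 2 days (limma adjusted p = 0.0208), and S100a9, its partner, was called at 0.0447, a call lost on leaving out any 1 library (0.0535 to 0.0909). Without both animals 2, which leaves 3 against 3, neither was called (0.0678 and 0.137). Of 11 lymphocyte genes with a row, 1 rose and 2 fell, with a median of 0.08. Over all genes 32.3% rose and 17.0% fell, so the count of falls shows nothing particular to lymphocytes. Igkc, the kappa light chain of plasma cells, measured 13.0, 13.2, 16.0 and 22.3 FPKM in sham and 5.59, 6.57, 7.10 and 10.6 at 2 days, a difference of -1.02 (limma adjusted p = 0.0152, and 0.0561 without sham animal 4). Trac, the T cell receptor alpha chain, fell by 0.62 and the kinase Lck rose by 0.47, both at levels around 1 FPKM, and each call was lost on leaving out 1 of some libraries (Trac without sham animal 4, 0.0699, or 2-day animal 3, 0.0583; Lck without sham animals 1, 3 or 4 or 2-day animals 3 or 4, 0.0815 to 0.159). The part of blood left in the vessels was not tested, and the haemoglobin genes are given below.

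All 7 listed genes of MHC class II rose, with a median of 1.70, beside a rise in 32.3% of all genes. These genes present antigen to helper T cells and are also known to be induced in injured epithelium. H2-Ab1 measured 39.1, 57.8, 40.2 and 38.3 FPKM in sham and 241, 132, 181 and 286 at 2 days, with sham animal 2 highest and the 2-day animal 2 lowest. Cd74, the invariant chain, rose by 1.70 and H2-DMa, which loads peptide, by 2.64. Of 17 interferon-response genes 11 rose and 0 fell (median 0.62), beside 32.3% and 17.0% of all genes. Among those that rose were Gbp3 by 1.60 and Irf1 by 1.24. The classical members Ifit3, Mx1, Oasl2, Rsad2, Ifi44 and Usp18 were not called. Without sham animal 2, 13 of the 17 rose, beside 4893 of all 14785 genes. Ifit3 (0.61, limma adjusted p = 0.0312) and Usp18 (0.44, 0.0334) were among the 13. Without both animals 2, 14 rose, with a median of 0.98, beside 5143 of all genes, and Oasl2 was called too (0.58, 0.0221). Ifi44 went the other way: it was called lower after quantile normalization (-0.45, 0.0489), after centring by length and GC (-0.54, 0.0231) and on rescaled values without the 2-day animal 2 (-0.55, 0.0327).

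All listed cell-cycle genes with a row rose: 18 of 18 for DNA replication, with a median of 1.02, and 14 of 14 for mitosis, with a median of 2.03. The background of rises over all genes was 32.3%. The smallest gene mean over all 24 libraries in the table is 1 FPKM. A member as low in sham as Mki67 therefore has a row only through groups where it was higher, which favours rises in these counts. Mki67, the proliferation antigen Ki-67, measured 0.40, 0.38, 0.34 and 0.40 FPKM in sham and 5.46, 3.70, 4.91 and 6.12 at 2 days (difference 2.12, SE 0.18). Top2a, the topoisomerase that untangles replicated DNA, went from 0.90, 1.55, 1.48 and 1.30 FPKM to 18.1, 8.75, 15.4 and 20.1 (difference 2.80). Animal 2 was lowest for both and still clear of sham. Cdk1, the kinase that drives mitosis, rose by 2.74, Uhrf1 by 2.31, the ribonucleotide reductase subunit Rrm2 by 2.23, the helicase subunit Mcm3 by 1.91 and the clamp Pcna by 0.96. Of 15 p53 target genes with a row 9 rose and 1 fell, and Cdkn1a, the inhibitor p21, measured 2.44, 6.53, 2.72 and 3.52 FPKM in sham and 26.0, 12.8, 27.2 and 26.3 at 2 days (difference 2.34). Gdf15 rose by 2.57 and Gadd45a by 1.32. Of 21 genes of ribosome biogenesis 15 rose and 0 fell, with a median of 0.39, led by Nop58 (1.35) and Npm1 (1.10).

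Of 19 immediate-early and AP-1 genes with a row, most of them transcription factors, 12 rose and 0 fell, with a median of 1.20. Over all genes 32.3% rose and 17.0% fell. Atf3 rose by 2.89, Klf6 by 2.60, Myc by 2.58 and Jund by 0.96. Myc measured 1.58, 3.53, 1.90 and 2.20 FPKM in sham and 21.8, 8.89, 20.2 and 28.2 at 2 days. The best known early genes were not called: Fos was 2.01 to 2.52 FPKM in sham and 5.75, 0.98, 2.01 and 6.03 at 2 days (limma adjusted p = 0.618), and Egr1 was 3.39 to 5.31 and then 13.1, 2.70, 5.82 and 14.2 (0.265). For both, 2-day animals 1 and 4 were high and animal 2 was below every sham kidney. Without that animal 14 of the 19 rose, beside 33.8% of all genes.

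Of 18 genes of endoplasmic reticulum stress and the integrated stress response, 17 rose and 1 fell, with a median of 0.81. Trib3, a pseudokinase of that response, measured 0.40, 0.73, 0.70 and 1.02 FPKM in sham and 15.2, 4.78, 17.0 and 16.6 at 2 days (difference 2.95). Asns, asparagine synthetase, rose by 2.63, Chac1, which degrades glutathione, by 1.87 and Ddit3, the factor CHOP, by 1.26. The one that fell was Herpud1, a gene of protein degradation at the endoplasmic reticulum, by 0.40, a call lost without 2-day animal 4 (limma adjusted p = 0.0532). Of 10 NRF2 targets and metallothioneins with a row, 5 rose and 1 fell, beside 32.3% and 17.0% of all genes. Hmox1, haem oxygenase, went from 22.8, 23.7, 19.5 and 19.3 FPKM to 144, 49.9, 169 and 152 (difference 2.40), Mt2 rose by 1.43 and Srxn1 by 1.16. Among 9 heat shock genes 3 rose and 1 fell, led by Hspb1, the small heat shock protein (3.30), with 5 not called, shares near those of all genes (32.3% rose and 17.0% fell). The median of 0.15 was close to that of all genes and changed sign without sham animal 3 (-0.060).

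Cytoskeletal genes rose in the same kidneys. Of 18 genes of the actin cytoskeleton, 16 rose and 0 fell, with a median of 1.27. Actb, beta-actin, which is often used as a reference gene, measured 245, 377, 194 and 248 FPKM in sham and 1140, 465, 1034 and 1504 at 2 days (difference 1.88). Anxa3 rose by 2.66, S100a6 by 1.97 and S100a11 by 1.78. S100a6 was 119 FPKM in sham animal 2 and 12.1 to 14.6 in the other sham kidneys, and its difference without that animal was 2.74. Of 12 target genes of YAP, a coactivator that responds to stretch, 5 rose, 0 fell and 7 were not called, beside a rise in 32.3% of all genes. Ankrd1 (1.94) and Cyr61 (1.54) led those that rose, and the groups overlapped in all 12. The call of Cyr61 was lost without sham animal 1 (0.0684) or 2-day animals 1 or 4 (0.0793 and 0.10). Gapdh, another reference gene, was called higher by 0.28 on the deposited scale and was not called after rescaling (0.14, adjusted p = 0.359), nor without any 1 of sham animals 2, 3 and 4 and 2-day animals 1 and 4 (0.0533 to 0.124).

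Proximal tubule transport genes fell. Of 19 listed, 16 fell and 0 rose, with a median of -0.87. Slc34a1, the main phosphate transporter, measured 2819, 2548, 2992 and 2698 FPKM in sham and 1183, 1742, 969 and 1029 at 2 days. Animal 2 kept the highest level of the obstructed kidneys, and none overlapped sham. The difference was -1.20 (SE 0.21, limma adjusted p = 8.46e-05). Slc7a13, an amino acid transporter of the late proximal tubule, went from 439, 296, 431 and 420 FPKM to 23.8, 33.8, 26.1 and 22.8, a difference of -3.85. The organic anion transporters Slc22a7 (-3.67), Slco1a1 (-3.30), Slc22a30 (-2.22) and Slc22a8 (-2.09) fell too. Lrp2, the endocytic receptor megalin, measured 120, 96.3, 127 and 108 FPKM in sham and 57.5, 96.5, 52.7 and 45.2 at 2 days. Its value in animal 2 lay within the sham range, and the difference was -0.88 with that animal and -1.10 without it. Not called were Slc5a12, the lactate transporter, at 32.8 to 53.4 FPKM in sham and 40.9 to 62.5 at 2 days (adjusted p = 0.160), Slc13a3 and Slc4a4. Hnf4a, the transcription factor that maintains proximal identity, fell by 0.45 (limma adjusted p = 0.0279), a call lost without any 1 of sham animals 1 and 3 and 2-day animals 1, 3 and 4 (0.0529 to 0.109).

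Some of the deepest losses were of enzymes. Inmt, a methyltransferase of the proximal tubule (chr6:55170626-55175043, minus strand), measured 1114, 935, 1039 and 1221 FPKM in sham and 28.5, 36.1, 38.6 and 36.4 at 2 days. All 4 obstructed kidneys were alike, animal 2 included, and sham was 30.9 times higher. The difference was -4.91 (SE 0.23, limma adjusted p = 1.61e-12). Cyp2d12, a cytochrome P450, fell by 3.93, Dnase1, a secreted nuclease, by 2.78 and Rnf24, a membrane RING protein, by 3.25 on the log2 scale.

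Of 16 genes of fatty acid oxidation, the main fuel route of the proximal tubule, 9 fell and 1 rose, with a median of -0.59. Acsm3, an acyl-CoA synthetase, measured 678, 308, 624 and 577 FPKM in sham and 110, 204, 122 and 81.7 at 2 days (difference -2.09). Ehhadh, a peroxisomal enzyme, fell by 1.85 and Acadm, the medium-chain dehydrogenase, by 1.42. The median over the list in animal 2 was -0.10 against the sham mean, and between -0.72 and -0.65 in the other 3. The gene that rose was Cyp4a14, a fatty acid hydroxylase, from 12.5, 43.5, 9.71 and 4.92 FPKM to 83.8, 208, 86.9 and 55.3 (difference 2.79, SE 0.81). The 2 animals numbered 2 were the highest of their groups.

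Of 5 genes of gluconeogenesis 4 fell, G6pc by 1.60 and Pcx by 1.22 among them. Pck1, the entry enzyme, was 511 to 812 FPKM in sham and 413, 1060, 311 and 412 at 2 days (adjusted p = 0.406), with animal 2 above every sham kidney, and without that animal it was called (-0.72, adjusted p = 0.0398). Of 20 nuclear genes of oxidative phosphorylation 14 fell and 0 rose, with a median of -0.35. Atp5a1, a subunit of ATP synthase, fell by 0.67, and 0 of the 20 changed by 1 or more. Of 14 glycolysis genes 6 rose, Hk2 by 1.28, Pfkp by 0.85 and Aldoa by 0.67, and the median was -0.02. After rescaling 4 rose and 1 fell. Over all genes 32.3% rose, and 25.3% after rescaling, so these counts show nothing particular to glycolysis. Of 16 genes of cholesterol synthesis and uptake 9 rose and 5 fell, and 7 and 5 after rescaling. Falls over all genes were 17.0%, and 25.5% after rescaling. Fdps, an enzyme of the isoprenoid steps, measured 15.1, 18.8, 16.0 and 15.9 FPKM in sham and 78.0, 34.0, 85.7 and 70.8 at 2 days, a rise of 1.89. Cyp51, a later enzyme of the sterol branch, fell (-1.16).

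Genes of the distal nephron fell as well. In the thick ascending limb 7 of 11 genes fell and 2 rose, beside 17.0% and 32.3% of all genes, with a list median of -0.54. Egf, the growth factor precursor (chr3:129677565-129755316, minus strand), measured 433, 416, 446 and 429 FPKM in sham and 12.8, 58.2, 9.14 and 10.4 at 2 days. Animal 2 kept several times more than its group, and all 4 were far below sham. The difference was -4.62 (SE 0.40, limma adjusted p = 1.47e-08) and -5.21 without that animal. Umod, uromodulin, made by the same cells, fell much less: it measured 1625, 1731, 1587 and 1785 FPKM in sham and 719, 1324, 657 and 912 at 2 days (difference -0.95, SE 0.16). Slc12a1, the loop-diuretic target, fell by 1.85. The 2 that rose were the paired claudins of calcium and magnesium passage, Cldn16 by 0.47 and Cldn19 by 0.63. On rescaled values the call of Cldn16 was lost without sham animal 4 (0.0562), 2-day animal 1 (0.0513), 2-day animal 2 (0.0606) or both animals 2 (0.0948).

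In the distal convoluted and connecting tubule 9 of 10 genes fell and 1 rose, beside 17.0% and 32.3% of all genes. The list median of -1.51 was the lowest among the lists. Pvalb, parvalbumin, measured 37.1, 37.3, 33.8 and 32.3 FPKM in sham and 0.15, 0.51, 0.10 and 0.09 at 2 days, a near-complete loss (difference -4.91, SE 0.29). Klk1, tissue kallikrein, went from 2099, 2243, 2122 and 2213 FPKM to 321, 811, 298 and 242 (difference -2.55). The calcium carriers S100g (-2.60) and Calb1 (-2.53), the thiazide target Slc12a3 (-1.71) and Kl, the co-receptor of FGF23 (-1.31), fell too. The exception was Trpv5, the apical calcium channel of the same cells. It measured 3.70, 3.78, 4.38 and 3.11 FPKM in sham and 22.1, 8.19, 21.3 and 17.0 at 2 days. Every obstructed kidney was above every sham kidney, with a difference of 1.85 (SE 0.25, limma adjusted p = 4.78e-06).

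**Figure D3:**
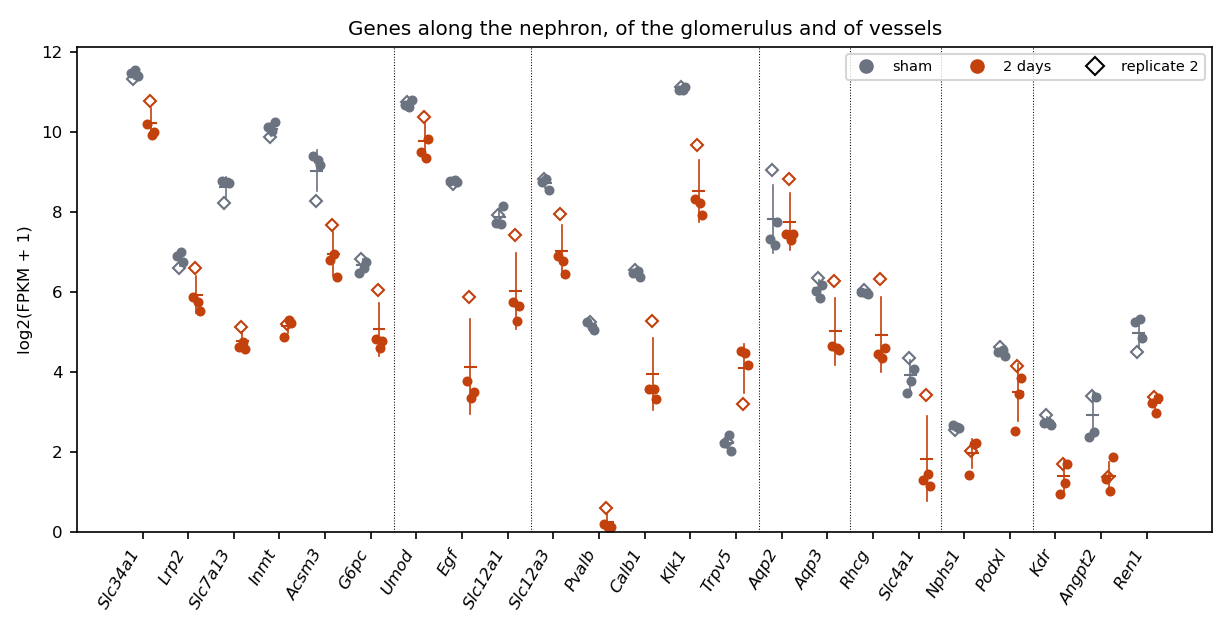
Log2(FPKM + 1) of 23 genes ordered along the nephron, then of podocytes, vessels and renin cells, in the 4 sham (grey) and 4 obstructed (orange) kidneys, with bars for mean and SD and open diamonds for the animals numbered 2. Trpv5 is the 1 gene shown that lies higher in the obstructed kidneys (8.19 to 22.1 FPKM), and the 2-day animal 2 sits near sham for Lrp2, Aqp3 and Rhcg.

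In the collecting duct the lists of both main cell types are given side by side, and no test compared them. Of 10 principal cell genes 2 fell and 1 rose, with a median of -0.06, which was -0.26 without the 2-day animal 2. On rescaled values 2 fell and 0 rose, and 5 fell without that animal (median -0.40). Over all genes 17.0% fell and 32.3% rose, and 25.5% and 25.3% after rescaling. With all libraries the 2 falls thus show nothing particular to principal cells. Aqp2, the vasopressin-regulated water channel, measured 159, 529, 143 and 216 FPKM in sham and 173, 455, 158 and 175 at 2 days. The highest value of each group was its animal 2, and the groups overlapped almost fully (difference -0.06, SE 0.40, limma adjusted p = 0.910). Without sham animal 2 the difference was 0.34. Aqp3, the basolateral water channel, was 57.2 to 80.5 FPKM in sham and 24.4, 76.0, 23.1 and 22.4 at 2 days, a fall of 1.09. The sodium channel subunit Scnn1a fell by 0.81, and Scnn1g was called higher by 0.31 but not after rescaling (0.19, adjusted p = 0.137). Of 10 intercalated cell genes, which handle acid, 8 fell and 0 rose, with a median of -0.84. Slc4a1, the chloride-bicarbonate exchanger that red cell precursors also make, fell by 2.09, the ammonia channel Rhcg by 1.06 and the proton pump subunit Atp6v1b1 by 0.87. Rhcg was 60.8 to 65.4 FPKM in sham and 20.8, 79.0, 19.5 and 23.5 at 2 days, so that animal 2 exceeded every sham kidney while the other 3 were far below. In a fit of the 8 libraries alone, limma did not call Rhcg (0.0565) or Scnn1a (0.0593).

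Of 15 transcription factors of nephron segments, 6 fell and 2 rose, on the deposited scale and after rescaling. Over all genes 17.0% fell and 32.3% rose, and 25.5% and 25.3% after rescaling. Irx1 fell by 1.56 and Emx1 by 1.02, with 2-day animal 2 well above the other obstructed kidneys for both. It measured 37.0 FPKM for Irx1 against 11.8 to 12.3 in the others, and 39.6 for Emx1 against 14.6 to 16.4. Maf rose by 0.90.

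In the glomerulus 5 of 11 podocyte genes rose and 4 fell, beside 32.3% and 17.0% of all genes. After rescaling 2 rose and 4 fell, beside 25.3% and 25.5%, so the counts show nothing particular to podocytes. Podxl, a surface sialoprotein, measured 21.9, 23.6, 22.5 and 20.1 FPKM in sham and 4.76, 16.8, 9.92 and 13.5 at 2 days (difference -1.03), and Nphs1, nephrin of the slit diaphragm, fell by 0.64. Cd2ap, an adaptor protein that other epithelia also express, rose by 1.08. For Podxl and Nphs1 the lowest value belonged to 2-day animal 1.

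Endothelial genes were lower or not called. Of 14 listed, 7 fell and 0 rose, with a median of -0.45. After rescaling 12 fell, beside 25.5% of all genes. Without sham animal 2 on the deposited scale 4 fell, beside 2253 of all 14785 genes. Kdr, the main VEGF receptor, measured 5.64, 6.59, 5.76 and 5.38 FPKM in sham and 0.95, 2.27, 1.33 and 2.27 at 2 days (difference -1.37, SE 0.13, limma adjusted p = 6.84e-08). Ehd3, enriched in glomerular endothelium, fell by 0.80 and the angiopoietin receptor Tek by 0.75. Of 6 endothelial activation genes with a row 2 rose and 2 fell, with a median of -0.01, beside 32.3% and 17.0% of all genes. Angpt2, an angiopoietin, fell by 1.51 and Esm1, endocan, by 1.25. Icam1, the leukocyte adhesion molecule that tubule cells also express, rose by 2.21 and Edn1, endothelin, by 1.84. Apln, apelin, was 2.29 to 2.64 FPKM in sham and 1.79 to 3.36 at 2 days (limma adjusted p = 0.940), and Vwf, von Willebrand factor, was 0.67 to 3.54 and 0.80 to 2.90 (0.994), and neither was called. Set beside these, 7-day kidneys averaged 7.18 FPKM for Kdr and 17.4 for Esm1, with 13 of the 14 endothelial genes called higher than in the same sham animals. At 7 days 8880 of all 14785 genes were called higher.

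Haemoglobin genes, a sign of blood left in the tissue, fell with these lists. Hbb-bs was 147, 295, 211 and 178 FPKM in sham and 127, 42.0, 39.8 and 137 at 2 days. Animals 2 and 3 were low and animals 1 and 4 lay just below the sham range. The 5 erythroid genes summed to 312 to 667 FPKM in sham and 95.4 to 348 at 2 days, 4 of 5 fell, and 2 of 5 were called without both animals 2. The beta-globin genes Hbb-bs and Hbb-bt share 53.2% and 58.3% of their 50-base windows with other genes. The part that retained blood plays in the endothelial and leukocyte values was not tested.

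Of 16 genes of pericytes and myofibroblasts, 7 rose and 4 fell, and after rescaling 6 rose and 5 fell. Over all genes 32.3% rose and 17.0% fell, and 25.3% and 25.5% after rescaling. Acta2, smooth muscle actin, measured 15.6, 27.0, 13.3 and 11 FPKM in sham and 81.1, 20.8, 36.4 and 82.4 at 2 days. Animal 2 lay inside the sham range, and the difference of 1.53 became 1.92 without it. Tagln rose by 1.54 and Thy1 by 1.51, the latter not called with a pseudocount of 10 (0.50, limma adjusted p = 0.0665). Ren1, renin, measured 36.9, 21.7, 39.4 and 27.7 FPKM in sham and 8.33, 9.34, 6.91 and 9.20 at 2 days (difference -1.75), and Myh11, the myosin of mature smooth muscle, fell by 1.16. Every obstructed kidney was below every sham kidney for Ren1.

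Matrix genes had begun to rise. Of 20 listed, 14 rose and 1 fell, with a median of 0.89. Col1a1 measured 1.80, 3.71, 1.56 and 1.77 FPKM in sham and 20.3, 23.6, 11.8 and 23.6 at 2 days (difference 2.69, SE 0.24), and Col3a1 rose by 2.83. For Col1a1 animal 2 was as high as any other. Mgp, matrix Gla protein, rose by 1.34, to 142 to 310 FPKM, and Col5a2 fell by 0.88. The 7-day means, against the same sham animals, were 84.3 FPKM for Col1a1, 292 for Col3a1 and 3442 for Mgp. In the TGF-beta pathway 5 of 13 genes rose and 0 fell, and after rescaling 5 rose and 3 fell, shares near those of all genes (32.3% rose on the deposited scale, and 25.3% rose and 25.5% fell on the rescaled one). The ligand Tgfb1 rose by 1.26 and its target Tgfbi by 1.63.

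**Figure D4:**
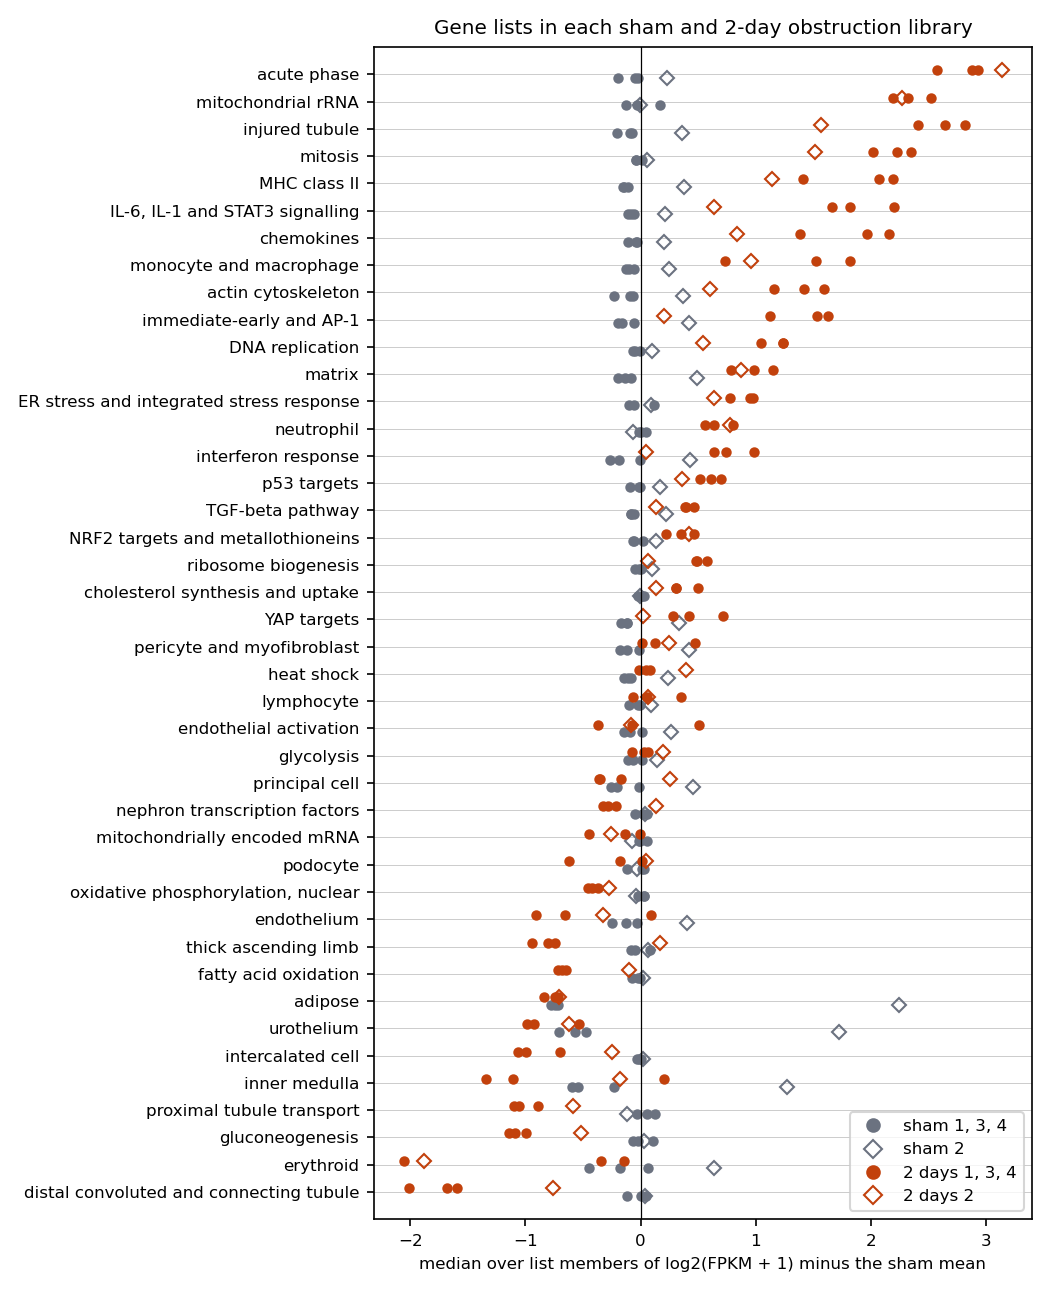
Median over the members of each gene list shown of log2(FPKM + 1) minus the sham mean, 1 point per library, for sham (grey) and 2 days of obstruction (orange), with open diamonds for the animals numbered 2. The acute-phase, mitochondrial rRNA and injured-tubule lists have the highest medians over the comparison (2.88, 2.33 and 2.24) and the distal convoluted and connecting tubule list the lowest (-1.51), and the adipose and urothelium points at 2.25 and 1.72 are sham animal 2.

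The last group of genes separated the 2-day libraries from all other 20 of the series, recovery groups included. In total 456 genes (3.08%) were above and 623 (4.21%) below every other library. Mitochondrial ribosomal RNA, which carries only a short tail, was high: mt-Rnr1 measured 565, 614, 582 and 709 FPKM in sham and 2496, 2385, 2832 and 2343 at 2 days, and mt-Rnr2 rose by 2.63. Malat1, a nuclear long noncoding RNA, was 167, 142, 161 and 161 FPKM in sham and 1062, 841, 911 and 1028 at 2 days, with a 7-day mean of 266. Neat1, also nuclear, was 443 to 642 and 401 to 920, with animal 2 the lowest (difference 0.42, limma adjusted p = 0.0738). It was called without the 2-day animal 2 (0.70, 0.000209) and without sham animal 4 (0.51, 0.0484). For mt-Rnr1, mt-Rnr2 and Malat1 the value of animal 2 lay near those of the other obstructed kidneys, as it also did for Clu and Inmt. For Malat1 it was the lowest of its group.

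Some mitochondrial mRNAs have near-identical nuclear copies in the table, and how the reads were assigned between them was not tested. The gene mt-Co2, a subunit of cytochrome oxidase, measured 6725, 5658, 5426 and 6254 FPKM in sham and 28420, 26090, 29637 and 27338 at 2 days and was called higher by 2.22. The nuclear pseudogene Gm28661 (chr1:24614885-24615565, minus strand) is identical to it over 681 of 681 aligned bases. It measured 26273, 24058, 26216 and 27677 FPKM in sham and 1719, 2343, 36.3 and 0.01 at 2 days, and was called lower, with the lowest difference of the table (-7.87). In the other 20 libraries it was never under 7952. The sum of the pair was 32999, 29716, 31642 and 33931 FPKM in sham and 30139, 28433, 29673 and 27338 at 2 days, a difference of -0.15 (2-sided exact permutation test of 4 against 4, p = 0.0571, adjusted over 6 pairs 0.114). For mt-Co3, called higher by 1.35, the copy Gm28437 is identical over 783 bases: the sums were 20553 to 22928 in sham and 19821 to 20758 at 2 days (difference -0.10, exact p = 0.0571, adjusted 0.114).

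Of the 13 mitochondrially encoded mRNAs 2 rose and 4 fell, and 5 of the 13 have such a copy in the table. With the 6 pseudogenes included, mitochondrial mRNA summed to 169404 to 190288 FPKM in sham and 149617 to 177647 at 2 days. Among those called on the deposited scale, mt-Co1 (-0.54) is the only one without a whole-length copy listed here, and 51.1% of its 50-base windows also occur elsewhere. After quantile normalization mt-Co1 was not called (-0.21, limma adjusted p = 0.149). The male-biased hydroxylases Cyp4a12a and Cyp4a12b also share sequence, 49.4% of the windows of the latter. Their sum was higher in every obstructed kidney than in any sham kidney. None of the 6 pair sums had an adjusted p under 0.05 in the exact permutation test. Cyp4a12b rose by 3.44 while Cyp4a12a was not called, and their sum was 14.8 to 38.3 FPKM in sham and 52.8 to 88.5 at 2 days, a difference of 1.38 (2-sided exact permutation p = 0.0286, the smallest that 4 against 4 allows, adjusted over 6 pairs 0.114).

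**Figure D5:**
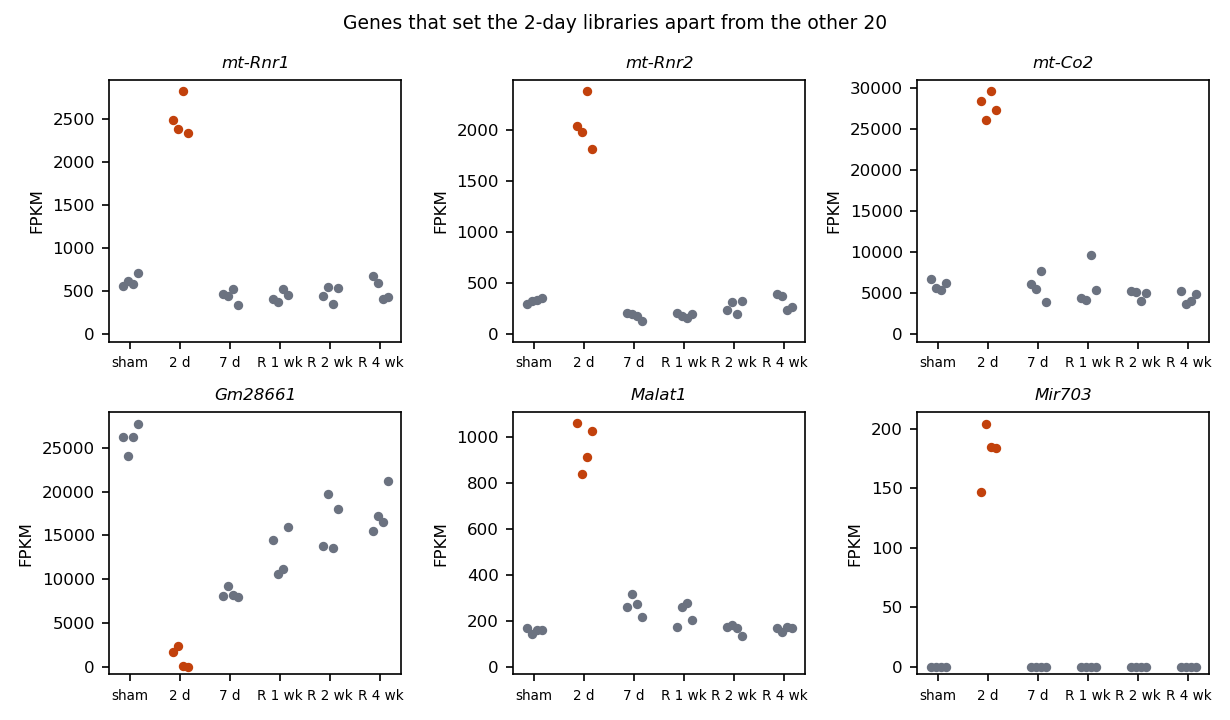
FPKM of 6 genes in all 24 libraries (orange for 2 days of obstruction, grey for sham, 7 days, and 1, 2 and 4 weeks after reversal). The 4 libraries of the 2-day group stand apart in each panel, upward for mt-Rnr1, mt-Rnr2, mt-Co2, Malat1 and Mir703 and downward for Gm28661.

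Other genes of this kind were short. Mir703, a hairpin annotation of about 110 bases, was listed at 0 in all sham libraries and at 146, 204, 184 and 184 FPKM at 2 days, and Mir686, which lies within Psmb5, at 0 and at 115, 174, 220 and 42.7. The values describe reads over these stretches, not mature miRNA, which this assay does not capture. Hist1h2ap, a replication-dependent histone whose mRNA lacks a poly(A) tail, was listed at 0 in sham and at 108, 60, 78.7 and 141 FPKM at 2 days, and 93.1% of its windows are shared with Hist1h2ao. Of 7 other RNAs without a poly(A) tail that had a row, 0 were called on the deposited scale with all libraries. Rny1, a Y RNA, was listed at 0 in sham and at 0, 0, 30.3 and 22.7 FPKM at 2 days (limma adjusted p = 0.0501), and was called after rescaling (0.0455) and without the 2-day animal 1 (0.0131) or 2 (0.0101). Mir703, Mir686 and Hist1h2ap are among the highest differences of the table, but a gene at 0 in sham can differ only upward. Mir703 was at 0 in all other 20 libraries, so it has a row only through the 2-day group. Whether the genes of this paragraph belong to the tissue or to the libraries cannot be told apart here.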

How the data were processed

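Poly(A)-selected RNA was sequenced in paired reads of 100 bases, per the labels' protocols. FastQC, Bowtie2, RSEM, DESeq2 and the build mm10 are named in the submitters' processing notes, without roles. The authors deposited 1 table of 14785 genes. FPKM is inferred for its values, since per the file headers no unit is given. Its smallest gene mean is 1, so low genes are not analysed here. The authors' deposited log2 fold changes and adjusted p-values (q-values; 197 genes have none) are used only where named.

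Log2(FPKM + 1) was fitted with limma 3.58.1 in R 4.3.3 (trend, 24 libraries, 1 coefficient per group). Rescaling used median ratios. The fit was tested on simulated data: it recovered 91 of 100 genes changed by 1 in log2 and 100 of 100 changed by 2, with 7 false calls among 14785 genes. Simulated noise was normal and independent, with no library difference and no outlying animal. The test therefore does not bear on calls affected by those features. Depth was read from steps in low values. No counts are given, so no interval that needs them is printed. Shared sequence was counted in GENCODE M21 transcripts as 50-base windows. Scores over lists were not tested.

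Groups came from titles. Same-numbered animals are different mice. Members and gene lists were chosen with earlier results of these data known. Named genes are listed ones, up to 8 rises and 8 falls of greatest difference (mean of at least 20 FPKM, no overlap, called on both scales, no mitochondrial, ribosomal, immunoglobulin or clone-named genes), and per list the 4 strongest called members, the most abundant one and members not called. Some genes that this rule names are not reported here. Others (such as Trpv5, Cldn16, Malat1, Gm28661 and Mir686) were chosen after their values were seen. The alternatives were other scalings, pseudocounts of 0.1 and 10, filters, 8 libraries alone, a replicate block, length and GC centring, and leaving out each library.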

Additional observations from a re-analysis of the deposited data

Results flagged for a closer look

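Each value of the named genes, gene lists and library measures was compared with the other animals of its group of 4. A value was counted as standing apart when its gap to the nearest other animal, as a share of the group's range, passed Dixon's critical value for 4 samples. Of 462 groups, 57 held such a value, where chance gives about 1 in 20. Of these, 28 were of sham animal 2, 23 of the 2-day animal 2 and 6 of other animals. Genes and lists of 1 animal are not independent of each other.

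Sham animal 2 was high for markers of other tissue: Cfd (91.8 FPKM) and Adipoq (12.5) of fat, with the median of the adipose list 2.25 above the sham mean in log2, and Upk3a (10.2) of urothelium, with that list at 1.72. It was high for S100a6 (119), Hbb-bt (44.7) and Ankrd1 (5.17), and the YAP list stood at 0.34 and the heat shock list at 0.24. Injury and immune genes were high in it as well: Spp1 (719), C3 (7.48), Socs3 (2.09), Lif (0.56), Clcf1 (4.12), Cxcl10 (5.16), Cd14 (5.12), Plac8 (17.9), Adgre1 (0.94), H2-Ab1 (57.8) and Cd74 (117). The IL-6, IL-1 and STAT3 list was 0.22, the MHC class II list 0.38, the matrix list 0.49 and the TGF-beta list 0.22 above the sham mean. Col1a1 (3.71) and Cd2ap (17.9) were high, and Slc7a13 (296) was low.

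The 2-day animal 2 was above the other 3 obstructed kidneys for nephron genes: Slc22a8 (31.3 FPKM), G6pc (65.8) and Pck1 (1060) of the proximal tubule, Egf (58.2) and Slc12a1 (170) of the thick limb, Pvalb (0.51), Klk1 (811) and Calb1 (38.1) of the distal tubule, and Aqp2 (455), Aqp3 (76.0), Scnn1a (37.5), Slc4a1 (9.70), Rhcg (79.0) and Atp6v1b1 (65.4) of the collecting duct. The transcription factors Irx1 (37.0) and Emx1 (39.6) were higher too, and the median of the fatty acid oxidation list was -0.10 relative to the sham mean, against -0.72 to -0.65 in the other 3. It was low for Fgb (29.1), Stat3 (27.2), Pfkp (35.4), Cdkn1a (12.8), Trib3 (4.78) and Chac1 (3.22).

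Elsewhere, Lcn2 was high in the 2-day animal 4 (553) and mt-Nd4l in the 2-day animal 3 (1731). In sham, S100a8 (0.34) and Uhrf1 (1.03) were high in animal 3, mt-Co3 (3959) in animal 1 and Saa1 (0.07, the others at 0) in animal 4.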

How the results depend on the processing

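The count of 7279 calls lay between 5441 and 7670 under other scalings, pseudocounts, the fit on the 8 libraries, the replicate block and the stricter adjusted p of 0.01. The split moved with the scaling: the genes called lower went from 2507 to 3776 after rescaling and to 3841 after centring by length and GC, quantile normalization gave 3490 higher and 3691 lower, and scaling to equal column sums 3959 higher and 2732 lower. A mean of at least 10 FPKM left 4233 calls (2715 higher, 1518 lower). A log2 change of at least 1 left 1294 (849 and 445), and 1340 (743 and 597) on rescaled values. Leaving out 1 library at a time gave 6291 to 7790 calls, 4095 to 4999 higher and 2119 to 2791 lower, highest without the 2-day animal 2, and on rescaled values 6519 to 8115, 3185 to 4041 higher and 3246 to 4074 lower. The removal of both animals 2, chosen after seeing the data like the rescaled removals, gave 7704 calls and, rescaled, 3972 higher and 3971 lower. Same-numbered animals did not deviate together (r between group deviations from -0.09 to -0.015, own number the best match for 0 of 4), and the replicate block called 7129 genes.

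Of 178 genes named, 143 kept direction and call under all 27 settings. Calls lost when 1 library was left out on the deposited scale were those of Cyr61, Gapdh, Herpud1, Hnf4a, Igkc, Lck, S100a9 and Trac. A pseudocount of 10 ended the calls of Igkc, Lck, S100a8, S100a9, Thy1 and Trac (adjusted p from 0.0665 to 0.436). The replicate block changed no call among the named genes. Aqp2, which was not called, ranged from -0.42 to 0.34 on leaving out 1 library and from -0.56 to 0.18 on rescaled values. Cyp4a12a, also not called, reached -0.11 on rescaled values without sham animal 2. Other genes that changed sign were not called either. Rsad2 ranged from -0.23 to 0.059 on leaving out 1 library (0.025 without both animals 2) and Apln from -0.13 to 0.082 (0.036 without both). Ifit3 was -0.016 on rescaled values without the 2-day animal 4, and Mx1 was -0.051 after quantile normalization. Vwf (0.0049) ranged from -0.22 to 0.31 on leaving out 1 library and from -0.30 to 0.23 on rescaled values. Those below 0 on rescaled values were -0.099, -0.25 and -0.15 without sham animals 1, 3 and 4, and -0.085 and -0.30 without 2-day animals 2 and 4. It was -0.068 after rescaling, -0.029 per column sum, -0.13 by quantiles, -0.0062 with a pseudocount of 10 and -0.041 after centring. The median of the heat shock list ranged from -0.060 (without sham animal 3) to 0.49 on leaving out 1 library. On rescaled values it ranged from -0.18 to 0.35, and was -0.13 without sham animal 1, -0.12 without sham animal 4 and -0.14 without the 2-day animal 2. The cause of these changes was not tested. Counts were not used here, so no limit of detection is given, and groups of 4 limit the precision.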
